A study of Rattus norvegicus with 24 samples.

Results

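The corticosterone response of the hippocampus was examined in rats that had no training, in 13 of the 24 RNA-seq libraries of the series. The libraries were taken by their titles, which give both training and treatment. In all, 7 libraries came from untrained rats given vehicle, the solution without the hormone, and 6 from untrained rats given corticosterone. All were male Sprague-Dawley rats, an outbred laboratory strain, and the tissue was dissected, snap-frozen hippocampus. The other 11 libraries came from trained rats, 5 with vehicle and 6 with corticosterone. The study asked how glucocorticoids strengthen memory formation, and the untrained rats give the response to the hormone in the absence of the training. Dose, route, time of sampling, age and the task are not in the labels used here. The labels number the samples without saying that each is a separate animal, so the p-values rest on sample-to-sample spread, which may be partly technical.

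Corticosterone is the main glucocorticoid of the rat, released by the adrenal cortex during stress and over the daily cycle. It enters cells and binds the mineralocorticoid and the glucocorticoid receptor, which are both abundant in hippocampal neurons. The bound receptors act in the nucleus as transcription factors, the glucocorticoid receptor mainly when hormone levels are high, and they raise some transcripts and lower others. The hippocampus is known as a site where these receptors act on memory and on the control of the stress response.

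The count table lists genes by Ensembl identifier and holds no gene names. The reference table of rat genes matched 0 of the identifiers, so no gene is named here and no function is given. The pathway lists and the cell type markers, with which the tissue label would have been checked, could not be looked up. Genes are called by their rank, from 1 for the smallest p among the called genes, and identifiers are given for 2 genes that rose and 2 that fell. Levels are given as CPM, in which the reads of a gene are divided by the effective size of the library, with no correction for gene length. They are therefore compared between libraries for 1 gene, not between genes. In whole tissue, fewer cells of a type and less RNA per cell cannot be told apart.

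Library depth was similar in both groups. Total counts in genes lay between 13996453 and 16372332 reads in the vehicle libraries and between 14776275 and 15998303 in the corticosterone libraries. Genes with any count numbered 18265 ± 109 with vehicle (SD, n = 7) and 18343 ± 111 with corticosterone (SD, n = 6). The difference was not larger than the spread between libraries (p = 0.240 by an exact permutation test, two-sided, and 0.876 after adjustment over 9 library measures). Of those 9 measures, which also covered depth, mapping shares, the share of the 100 most abundant genes and the main axis of variation, 0 passed, and the smallest unadjusted p was that 0.240.

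Corticosterone changed 53 of the 14838 genes tested in untrained rats, which is 0.357% of them, at an adjusted p under 0.05 (edgeR quasi-likelihood test, Benjamini-Hochberg adjustment over all genes tested). The change was mostly upward. Of the 53 genes, 48 were higher with corticosterone (0.323% of the genes tested) and 5 were lower (0.0337%). Among the higher genes, 9 rose at least 2-fold, 13 rose between 1.5-fold and 2-fold and 26 rose by less than 1.5-fold. The smallest called rise was 1.15-fold and the median 1.46-fold. All 5 lower genes fell by less than 1.5-fold.

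The upward lean was strongest among the smallest p-values. At an adjusted p under 0.01, 27 genes were higher and 0 lower. Between 0.05 and 0.1, just outside the threshold, the split was 23 higher and 8 lower. Over the 948 genes with an unadjusted p under 0.05 it was 523 against 425. Over all genes tested, 7637 lay above and 7201 below a log2 fold change of 0. The last called gene had a log2 fold change of 0.53 at an adjusted p of 0.0483, and the next gene one of 0.47 at 0.0503 (edgeR).

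**Figure D1:**
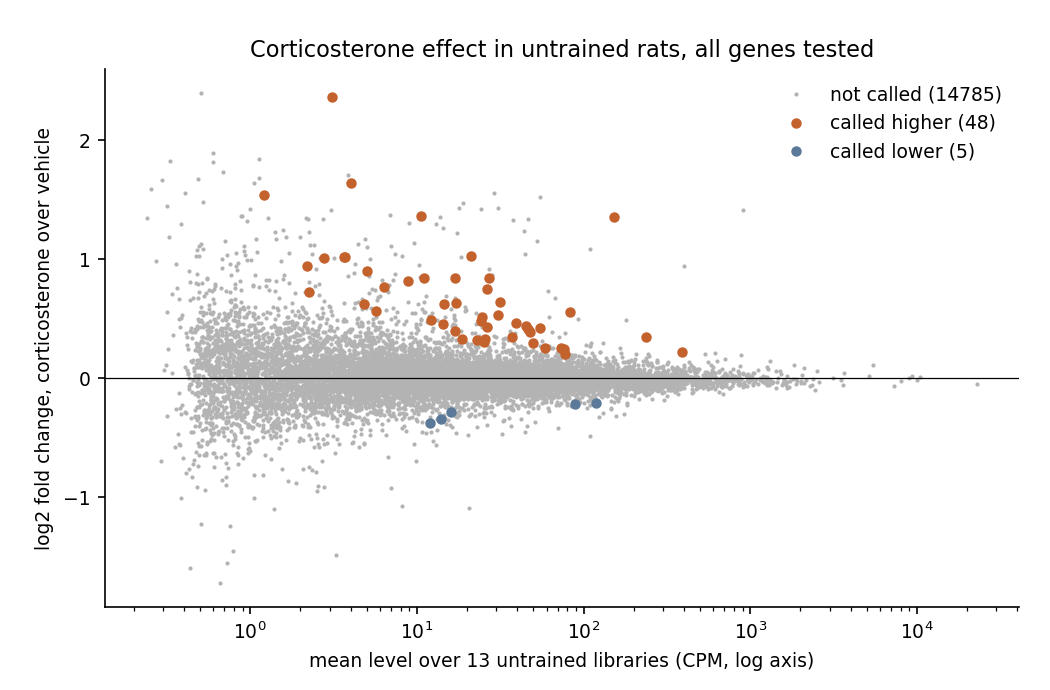
Log2 fold change of corticosterone over vehicle in untrained rats (y axis) against the mean level over the 13 libraries in CPM (x axis, log scale), with 1 point per gene tested. The 48 genes called higher and the 5 called lower are coloured, and the gene ranked 1, with a log2 fold change of 1.35, stands apart from the other 3 called genes at 100 CPM and over.

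Most called genes lay between 10 and 100 CPM. In that band 32 of 7577 genes were called higher and 4 lower. Between 1 and 10 CPM, 13 of 4042 were higher and 0 lower. At 100 CPM and over, 3 of 2173 were higher and 1 lower. None (0) of the 1046 genes under 1 CPM was called by edgeR. The median standard error (SE) of the log2 fold change was 0.31 in this lowest band, against 0.16, 0.06 and 0.04 in the bands above it. A change under 1 CPM thus had to be larger than in those bands to be detectable at this depth.

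The gene with the smallest p, ENSRNOG00000056457, had more reads than most of the called genes. Over the 7 vehicle libraries its level had a lowest value of 74.3, a median of 86.3 and a highest value of 114 CPM. In the 6 corticosterone libraries the lowest was 179, the median 215 and the highest 280 CPM. The groups did not overlap, and the lowest corticosterone library lay well above the highest vehicle library. Its rise was 2.56-fold, or 1.35 on the log2 scale with an SE of 0.13 (edgeR adjusted p = 2.35e-06), on raw counts of 1195 to 4516 reads.

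The gene ranked 2, ENSRNOG00000017198, had the largest fold rise of the called genes and few reads without the hormone. Its level with vehicle ran from 0.708 through a median of 0.972 to 1.47 CPM. With corticosterone it ran from 4.59 through 5.14 to 7.33 CPM. All 6 corticosterone libraries were above all 7 vehicle libraries, and the rise of 5.15-fold, or 2.36 on the log2 scale, had an SE of 0.24 (edgeR adjusted p = 2.35e-06). Raw counts behind it were 11 to 118 reads.

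The genes ranked 3 to 5 were also separated in every library. The gene ranked 3 went from 1.602 to 2.36 CPM with vehicle (median 2.14) to 4.90 to 8.02 CPM with corticosterone (median 6.26), a 3.11-fold rise. For the gene ranked 4 the ranges were 11.6 to 18.9 CPM (median 13.5) and 25.2 to 33.6 CPM (median 28.2), a 2.03-fold rise. The gene ranked 5 rose by a smaller factor of 1.39, from 19.2 to 22.1 CPM (median 20.2) to 25.2 to 31.9 CPM (median 28.6). Its small SE of 0.06 on the log2 scale put it among the leading genes, which shows that rank here follows precision as well as size. The edgeR adjusted p-values of these 3 genes were 5.5e-06, 2.79e-05 and 3.91e-05.

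**Figure D2:**
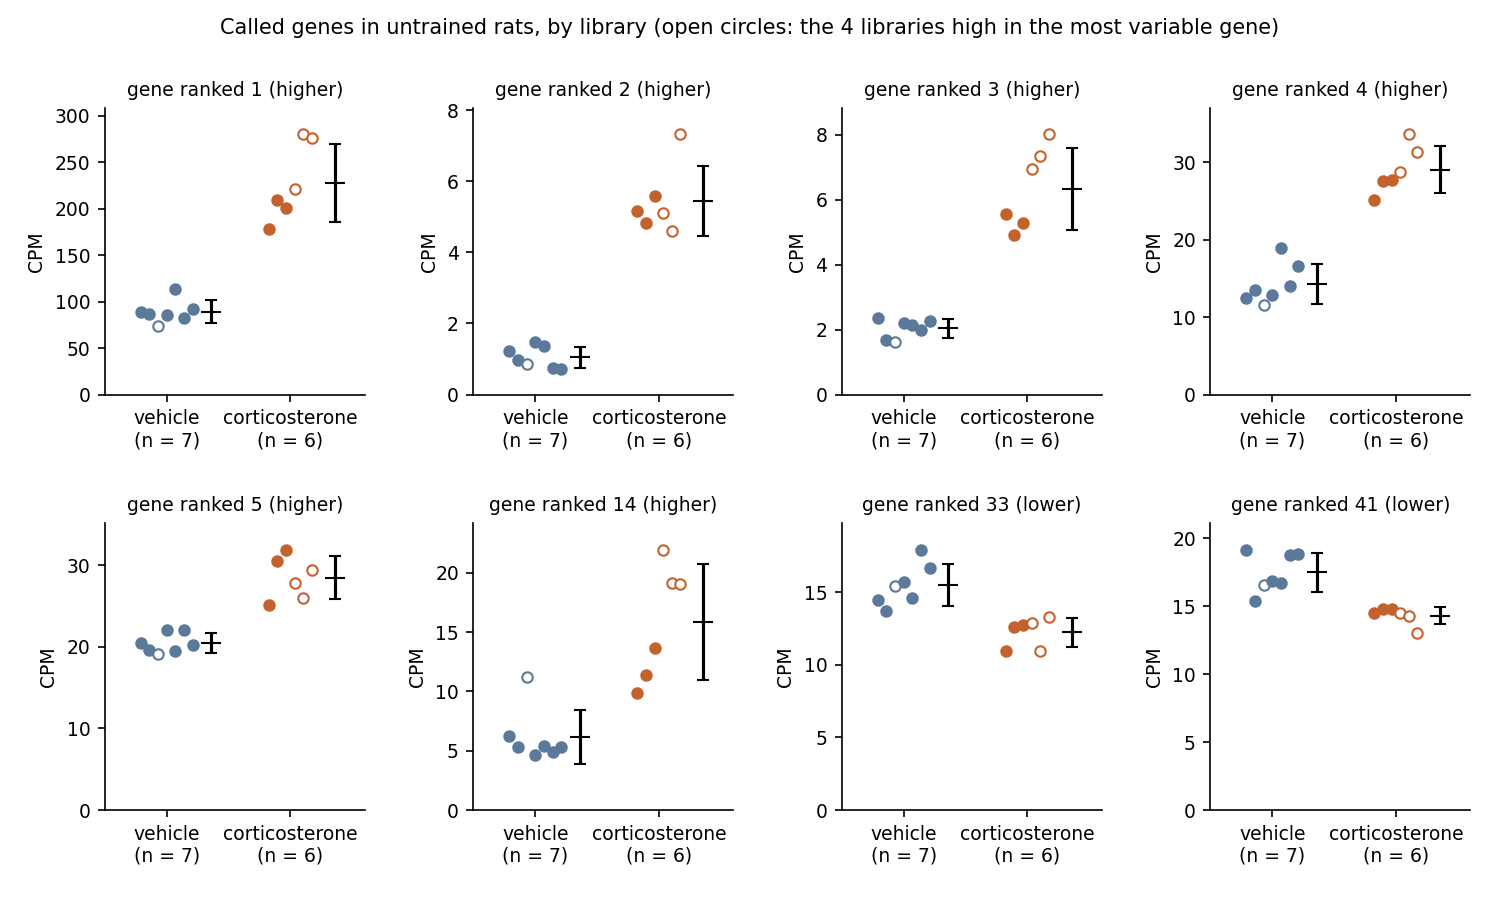
Levels in CPM (y axis, from 0) of 8 called genes in each untrained library, with vehicle libraries (n = 7) on the left and corticosterone libraries (n = 6) on the right of each panel. Bars give the mean ± SD, open circles are the 4 libraries at 2249 CPM or more of the most variable gene. In all panels except that of the gene ranked 14 the 2 groups do not overlap.

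The genes ranked 6 to 25 all rose, by factors between 1.252 (rank 24) and 2.58 (rank 14). For 17 of these 20 genes the 2 groups of libraries did not overlap, against 69 of all 14838 genes tested (0.465%). Choosing genes by their p in the same libraries favours such separation. The other 3, ranked 13, 14 and 19, had 5 of 6 corticosterone libraries above every vehicle library. The gene ranked 7 rose 1.35-fold, from 36.04 to 41.6 CPM with vehicle (median 39.7) to 44.1 to 55.9 CPM with corticosterone (median 54.2). The gene ranked 10 rose 1.79-fold, from 10.7 to 13.6 CPM (median 13.03) to 15.8 to 27.3 CPM (median 23.2). The gene ranked 17 rose 1.47-fold, from 58.9 to 84.7 CPM (median 63.3) to 92.1 to 115 CPM (median 99.7). The gene ranked 25 rose 1.80-fold, from 15.8 to 26.4 CPM (median 18.4) to 31.4 to 39.9 CPM (median 35.3). Adjusted p-values over ranks 6 to 25 ran from 0.000241 to 0.0087 (edgeR), and the call of rank 24 was lost with the 13 untrained libraries alone. With a block for each run of 5 sample numbers, ranks 8, 14, 23, 24 and 25 lost the call. Without the 4 libraries high in the most variable gene, only ranks 6, 8 and 14 of this band kept it. Both of these alternatives were chosen after seeing the data, and the second kept fewer libraries.

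The 23 higher genes of ranks 26 to 53 had smaller or less precise rises, with a median of 1.31-fold and adjusted p-values from 0.0087 to 0.0483 (edgeR). The groups did not overlap for 9 of them, which their choice by p again favours, and overlapped for 14. Of these 23 genes, which lie outside the naming rule, 5 were singled out after their values were seen. The called gene with the most reads, ranked 37, rose 1.17-fold, from 344 to 383 CPM with vehicle (median 358) to 394 to 463 CPM with corticosterone (median 412). The smallest called rise, 1.15-fold at rank 26, had 68.3 to 76.5 CPM (median 74.3) against 80.4 to 86.6 CPM (median 83.9), without overlap. The gene ranked 42 came next in reads and rose 1.27-fold, from 192.6 to 233 CPM (median 207) to 239 to 304 CPM (median 259). The gene ranked 34 rose 2.03-fold at low levels, from 1.65 to 3.51 CPM (median 2.59) to 3.69 to 7.64 CPM (median 4.81), without overlap. The gene ranked 49 had the fewest reads, with 4 to 48 per library. Its levels of 0.274 to 1.002 CPM (median 0.551) and 0.738 to 2.98 CPM (median 1.99) overlapped, and its 2.91-fold rise had an SE of 0.35 on the log2 scale (edgeR adjusted p = 0.0439). Of these 5 genes, edgeR lost the calls of ranks 34 and 49 with the 13 untrained libraries alone and those of ranks 37, 42 and 49 without sample numbers 40 and 41. That of rank 49 was also lost with a block for each run of 10 sample numbers and with no filter on low counts, and that of rank 42 with the level of the most variable gene (the gene that weighs most on the main axis of variation) as a covariate.

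The 5 genes that fell changed by little and by similar amounts. ENSRNOG00000024207, ranked 33, lay between 13.7 and 17.96 CPM with vehicle (median 15.5) and between 10.9 and 13.3 CPM with corticosterone (median 12.7). It fell by 0.34 on the log2 scale (SE 0.07, edgeR adjusted p = 0.0218), and its groups did not overlap. ENSRNOG00000048800, ranked 41, lay between 15.4 and 19.2 CPM (median 16.9) and between 13.1 and 14.8 CPM (median 14.5). It fell by 0.29 (SE 0.06, edgeR adjusted p = 0.0304), again without overlap.

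The gene ranked 44 fell from 12.4 to 14.8 CPM (median 13.2) to 9.87 to 10.8 CPM (median 10.1), and its log2 fold change of -0.38 was the largest fall among the called genes. The gene ranked 50 fell from 117.3 to 134 CPM (median 126) to 97.6 to 117 CPM (median 110.1), and the gene ranked 47 from 87.1 to 100.5 CPM (median 95.6) to 74.0 to 87.5 CPM (median 82.2). Only the gene ranked 47 overlapped between groups. Of the 13 fits that each left out 1 untrained library, the genes ranked 33, 41, 44, 47 and 50 were called lower in 9, 7, 2, 4 and 5. Without untrained vehicle replicate 32, and likewise without untrained corticosterone replicate 29, edgeR called 0 lower genes, against 41 and 34 higher. With the 13 untrained libraries alone it called 2 lower genes, of which only the gene ranked 44 was among these 5. The calls of ranks 33, 41, 47 and 50 were lost in that fit. DESeq2 called 16 lower genes from all libraries. The call of the gene ranked 44 was lost with a block for each run of 10 sample numbers (edgeR adjusted p = 0.0744), those of ranks 44 and 50 with the level of the most variable gene as a covariate, and all 5 without sample numbers 40 and 41.

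Separation of the 2 groups was also counted over the whole table, whatever the test gave. For 69 genes (0.465%) no corticosterone library overlapped any vehicle library in CPM. In 47 of them (0.317%) corticosterone was higher and in 22 (0.148%) lower. The called genes made up 35 of the 69, with 31 higher and 4 lower. The 34 others, 16 higher and 18 lower, had a median change of 0.26 on the log2 scale in either direction and did not pass the test. The upward lean was thus present in the called genes and not in the separated genes that missed the call.

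The summed level of the higher genes varied between the corticosterone libraries, which was described and not tested. Summed over the 48 higher genes, which were selected on these libraries, the level was 1649 ± 59.3 CPM with vehicle (SD, n = 7) and 2274 ± 154 CPM with corticosterone (SD, n = 6). Genes with many reads weigh most in the sum, and those ranked 37, 42 and 1 averaged 419, 266 and 228 CPM with corticosterone. Corticosterone replicate 4 had the lowest sum of its group, 2066 CPM, and was lowest of the 6 for 21 of the 48 genes. Replicates 29 and 39 had the highest sums, 2448 and 2456 CPM, and replicate 39 was highest for 16 genes. In the vehicle group, where sums ran from 1569 to 1739 CPM, replicate 27 was highest for 18 genes and replicate 17 lowest for 16.

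The main axis of variation among the 13 libraries was not found to differ between the treatments. Its p was 0.379 by the exact permutation test, two-sided, and 0.876 adjusted, with only 7 and 6 libraries. The leading principal component of log2 CPM held 34.0% of the variance. The gene with the largest loading on it, called the most variable gene here, stood at 2249 to 3064 CPM in 4 libraries (vehicle replicate 17 and corticosterone replicates 19, 29 and 39) and at 5.70 to 271 CPM in the other 9. Between the treatments it differed by 1.41 on the log2 scale with an SE of 1.56, which was within the spread of the libraries (edgeR adjusted p = 0.902). Over the 13 libraries, with group means removed, 306 genes (2.06% of those tested) had a Pearson correlation with it above 0.8 in size, as a description of libraries that also share their depth and makeup.

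That axis moved with the fitted size of some changes. Of the 13792 tested genes averaging 1 CPM or more, 60 had a fitted rise of at least 2-fold and 5 a fall of that size. Of the 60, 9 were called and 51 were not, and 37 of the 51 followed the most variable gene with a correlation above 0.8 in size. Among the 53 called genes there was 1 with such a correlation, that ranked 14, a share close to the 2.06% of all genes tested. The genes ranked 49, 51, 40 and 50 came near that cut, with r of 0.79, 0.78, 0.77 and -0.74. The median size of r was 0.23 over the 53 genes and 0.27 over all genes tested. The gene ranked 14 stood at 4.65 to 6.23 CPM in 6 vehicle libraries and at 11.2 CPM in replicate 17. Its corticosterone levels were 9.84, 11.4 and 13.7 CPM in replicates 4, 9 and 14 and 21.98, 19.2 and 19.1 CPM in replicates 19, 29 and 39. Its corticosterone levels lay above its vehicle levels within the 4 libraries high in the most variable gene, of which 1 was a vehicle library. They also did within the other 9, and choosing the gene by its p in these libraries favours both. Its log2 fold change was 1.37 over all libraries, 1.22 with the level of the most variable gene as a covariate and 1.14 without the 4 libraries (edgeR adjusted p = 0.000569, 1.16e-05 and 0.00227).

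**Figure D3:**
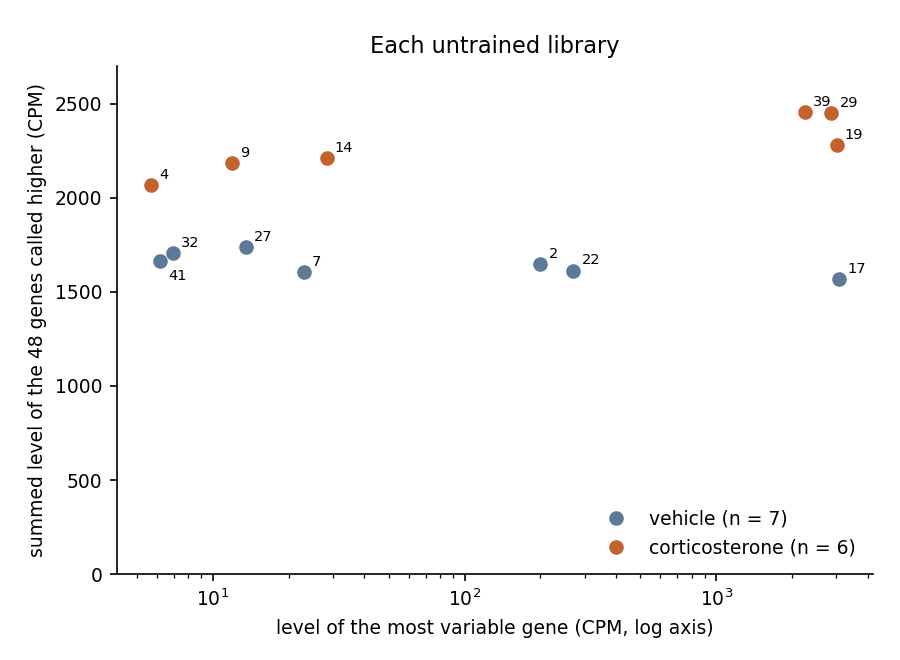
Summed level of the 48 genes called higher (y axis, CPM, from 0) against the level of the most variable gene (x axis, CPM, log scale), with 1 point per untrained library and the replicate number beside it. Corticosterone libraries lie above vehicle libraries at low and at high levels of the most variable gene, as the choice of the 48 genes favours, and replicates 19, 29 and 39 have the 3 highest sums.

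The 3 corticosterone libraries high in the most variable gene had the 3 highest sums over the 48 genes, 2281 to 2456 CPM, against 2066 to 2211 CPM in the other 3. The vehicle library high in it had the lowest sum of its group, 1569 CPM. With its level as a covariate, an alternative chosen after seeing the data, 54 genes were called and 47 were shared with the 53. Without the 4 libraries, also chosen after seeing the data, 9 genes were called, all higher, and 8 of them were among the 53. That fit kept 3 corticosterone libraries. In it the 48 genes had a median change of 0.50 on the log2 scale, against 0.54 over all libraries, and all 53 genes kept their sign. The genes were chosen on libraries that include those of this fit, which favours an unchanged sign and a like size. The ranks called in it were 1 to 6, 8 and 14.

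Untrained vehicle replicate 41 was kept in the group its title gives, although the table places its column within the trained vehicle block. Without it, 33 genes were called, 32 higher and 1 lower, and 31 of them were among the 53. Its training state was not checked against the data. The numbers of the other samples follow the groups in a cycle of 5, in which 40 would fall to trained vehicle, although its title and its column give trained corticosterone, and no other sample shares the place of 41. Without both samples, an alternative chosen after seeing the data, 34 genes were called (33 higher and 1 lower), and 32 of them were among the 53.

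The called genes were then followed in the trained rats, whose 11 libraries had no part in the contrast but shared the fitted model. In trained rats 24 genes were called (0.162% of the genes tested), and 21 of the 53 were among them. Of the 5 leading genes 4 were called in trained rats, of ranks 6 to 25 14, of the 23 higher genes after them 3 and of the 5 lower genes 0. On the log2 scale the 48 higher genes had a median change of 0.54 in untrained and 0.45 in trained rats. All 53 genes kept their sign. Without sample numbers 40 and 41, 25 genes were called in trained rats, of which 21 were among the 24 and 19 among the 53. For 42 of the 53 genes the change was smaller in trained rats, a direction that choosing the genes in untrained rats favours. The gene ranked 1 averaged 100.2 ± 21.4 CPM (SD, n = 5) in the vehicle group of the trained rats. It averaged 207 ± 36.2 CPM (SD, n = 6) in their corticosterone group, a rise by 1.05 on the log2 scale with an SE of 0.14 (edgeR adjusted p = 0.000703). The gene ranked 2 averaged 1.27 ± 0.399 CPM with vehicle and 5.89 ± 2.20 CPM with corticosterone in trained rats (SD, n = 5 and 6). Its change there, 2.20 on the log2 scale with an SE of 0.25, stood against 2.36 in untrained rats (edgeR adjusted p = 8.18e-05). The gene ranked 41, which fell by 0.29 in untrained rats, changed by -0.14 on the log2 scale in trained rats, with an SE of 0.07, and was not called there (edgeR adjusted p = 0.689).

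**Figure D4:**
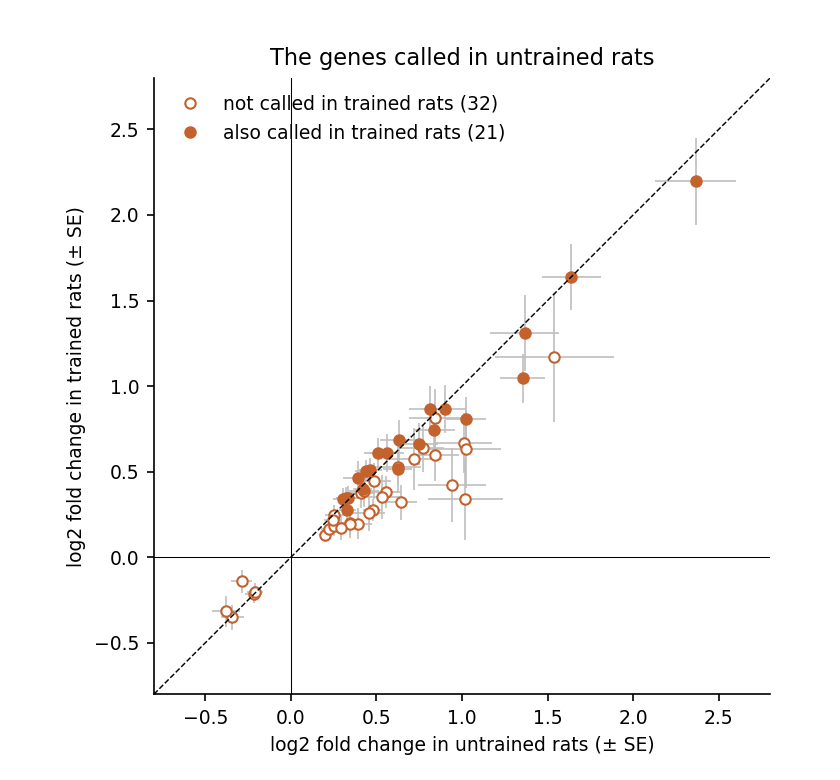
Log2 fold change of corticosterone over vehicle in trained rats (y axis) against that in untrained rats (x axis) for the 53 genes called in untrained rats, with bars of ± SE. The dashed line marks equal change. All 53 genes have the same sign in both, 21 were also called in trained rats, and 42 lie nearer to 0 in trained rats.

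The difference between the training states was itself tested. For the interaction 0 of 14838 genes passed, which is 0% (edgeR, smallest adjusted p = 0.378, 634 genes at an unadjusted p under 0.05), and DESeq2 also called 0, with 580 at an unadjusted p under 0.05. Of the 53 genes, 3 had an unadjusted interaction p under 0.05 (edgeR), a share close to that of the 634 among all 14838. They ranked 5, 12 and 43, each with an adjusted p of 0.962. Each had a smaller change in trained rats, which choosing the genes in untrained rats favours. The gene ranked 43 was singled out for its interaction p after its values were seen. Its untrained call was lost with a block for each run of 10 or 5 sample numbers and without sample numbers 40 and 41. It was also lost without the 4 libraries high in the most variable gene. Of the 13 fits that each left out 1 untrained library, 2 called the gene. In untrained rats it stood at 2.49 ± 0.681 CPM with vehicle and 5.04 ± 0.302 CPM with corticosterone (SD, n = 7 and 6). In trained rats it was at 3.49 ± 1.48 and 4.39 ± 1.43 CPM (SD, n = 5 and 6). For 42 of the 53 genes the 95% interval of the difference reached no further than 1.5-fold up or down, and for 49 no further than 2-fold.

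The leading genes were called whichever library was left out. Of the 53 genes, 28 were called in all 13 fits that each left out 1 untrained library, and these were ranks 1 to 28, all higher. None (0) of the 5 lower genes was called in all 13 edgeR fits. The number of calls ranged from 33 to 55 over these fits. It was lowest without vehicle replicate 7, corticosterone replicate 39 or vehicle replicate 41 (33 each) and without corticosterone replicate 29 (34). DESeq2 called 87 genes in the same contrast, 71 higher and 16 lower, and these included all 53. Only 6 of the 53, ranks 1 to 6, were called in all 24 alternatives, that is the 13 fits above and 11 others. With a block for each run of 5 sample numbers, ranks 8, 14, 23, 24, 25, 27 and 28 of the 28 lost the call.

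**Figure D5:**
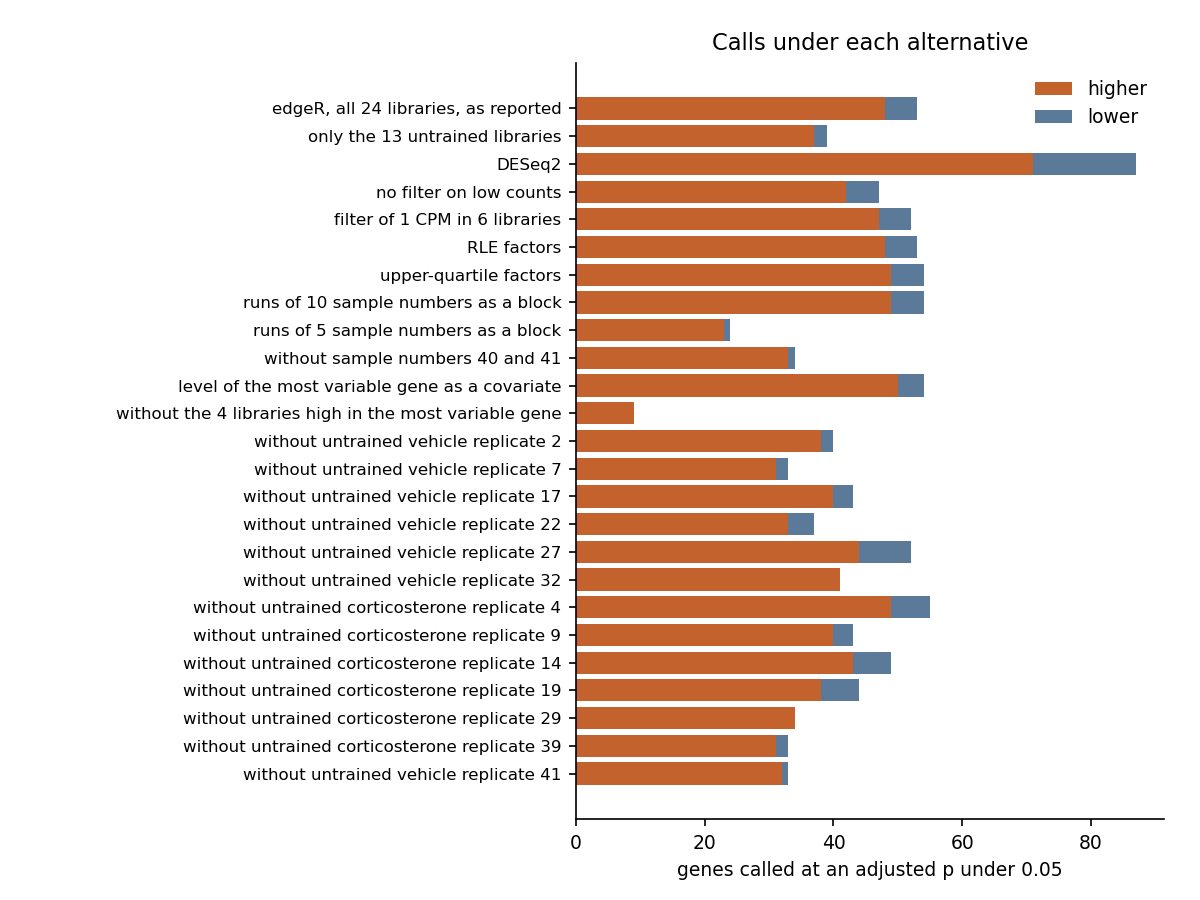
Number of genes called higher and lower (x axis, from 0) for corticosterone in untrained rats under each alternative (y axis). The first bar is the result reported here, 48 higher and 5 lower, the shortest is the fit without 4 libraries (9 higher) and the longest that with DESeq2 (71 higher and 16 lower).

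The precision of the untrained contrast can be read from its 95% intervals, whose half-width on the log2 scale had a median of 0.16. For 12394 genes (83.5%) the interval reached no further than 1.5-fold up or down, and for 14027 (94.5%) no further than 2-fold. The 18045 identifiers with too few counts were not tested.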

How the data were processed

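The data are whole-number read counts as the authors deposited them, for 32883 Ensembl rat gene identifiers in 24 columns, followed by 5 summary lines. STAR 2.7.0b, HTSeq 0.6.1, FastQC, MultiQC and the build rn6 were named, per the submitters' processing notes. Neither annotation release nor strandedness is given in those notes or the labels, which leaves overlapping, antisense and near-identical genes uncertain. Of all reads in the 13 untrained libraries, 61.0% (vehicle) and 60.7% (corticosterone) were assigned to genes on average. The summary lines entered neither library sizes nor tests.

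Genes were filtered with filterByExpr by group (14838 kept), normalised by TMM and fitted in edgeR 4.0.16 (glmQLFit, glmQLFTest; R 4.3.3), in 1 model of 4 group means over 24 libraries. A gene was called at a Benjamini-Hochberg adjusted p under 0.05, over all genes tested. SEs are Wald errors. CPM uses TMM-scaled library sizes. DESeq2 1.42.0 was an alternative. Library measures were compared with exact permutation tests in SciPy 1.17.1. Scripts were tested on simulated data. Within the 2 untrained groups, 36 pairs of libraries were compared by chi-square, and the closest pair still had 4.28 per degree of freedom, so none agreed within sampling noise.

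The genes named by rank are the 25 higher and up to 10 lower called genes with the smallest p and a mean of at least 1 CPM. The libraries, lists and rules were chosen with earlier results of these data known. The 30 gene and marker lists and the promoter motifs could not be used, since 0 of 47357 reference rows carry an Ensembl identifier.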

Additional observations from a re-analysis of the deposited data

Results flagged for a closer look

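In 84 groups of values (12 library measures and 30 called genes, in each of the 2 untrained groups), 10 had a highest or lowest library set apart from its nearest neighbour by more than the 95% critical value of Dixon's test, where chance alone gives about 1 in 20 groups. On the first principal component, vehicle replicate 17 was at 30.5 and the next vehicle library at -4.37. The share of reads not aligned was 1.87% in vehicle replicate 22, and the next lowest was 3.10%.

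Among the genes, vehicle replicate 27 had 32.3 CPM of the gene ranked 12 (next 25.5 CPM), and vehicle replicate 17 had 11.2 CPM of the gene ranked 14 (next 6.23 CPM). Corticosterone replicate 39 had 7.33 CPM of the gene ranked 2 (next 5.59 CPM). It was also lowest for the gene ranked 20, at 6.65 CPM (next 8.16 CPM), and for the falling gene ranked 41, at 13.1 CPM (next 14.3 CPM). Corticosterone replicate 4 was lowest for the genes ranked 7, at 44.1 CPM (next 52.0 CPM), and 13, at 24.1 CPM (next 35.1 CPM). For the gene ranked 24 corticosterone replicate 19 was highest, at 30.4 CPM (next 25.7 CPM).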

How the results depend on the processing

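The 53 calls (48 higher, 5 lower) became 87 with DESeq2 (16 lower), and 9 (9 higher, 0 lower) without the 4 libraries high in the most variable gene, a fit of fewer libraries. Lower calls numbered 2 in the fit of the 13 untrained libraries alone, which called 39 genes. Leaving out 1 untrained library at a time gave 33 to 55 calls, 31 to 49 higher and 0 to 8 lower; the lower calls were 0 without vehicle replicate 32 or corticosterone replicate 29, 1 without vehicle replicate 41, 2 without vehicle replicate 2, vehicle replicate 7 or corticosterone replicate 39, 3 without vehicle replicate 17 or corticosterone replicate 9, and 8 without vehicle replicate 27. The other settings gave 47 (no filter), 52 (1 CPM in 6 libraries), 53 (RLE), 54 (upper-quartile), 54 (runs of 10 sample numbers as a block) and 54 calls (level of the most variable gene as a covariate). The block by runs of 10 and the covariate each kept 47 of the 53 genes, losing ranks 40, 43, 44, 49, 51 and 52 and ranks 42, 44, 45, 50, 52 and 53. Calls numbered 34 (33 higher, 1 lower) without sample numbers 40 and 41. Refits of the 30 genes named by rule kept the call in 638 cases and lost it in 82, with 0 reversals, as the libraries shared with the main fit favour. The interaction had 0 calls in each of its 23 refits, and the library measures did not pass in any of 117. No sample number is shared between groups, and the labels do not say what a number marks. With runs of 5 numbers as a block, chosen after seeing the data, 24 genes were called (23 higher, 1 lower), 23 of them among the 53; samples 14 and 41 are alone in their runs and add nothing to that fit. Deviations from the group means had no common direction in the 4 untrained pairs of a run. Their r across genes was -0.40 to 0.49, against -0.51 to 0.48 in the 38 other pairs. These r values also carry the main axis of variation, and 4 pairs are too few to tell whether runs differ. The runs were not taken as pairs in the main fit. The choroid plexus covariate, the gene lists and the promoter motifs were not run, as no gene names could be matched.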

Other observations

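Some genes stood far higher in part of the untrained libraries than in the rest. In 18 genes the sorted levels of the 13 libraries held a gap of at least 8-fold (after adding 0.1 CPM) with at least 3 libraries on either side and at least 5 CPM above it. In 14 of them the high libraries were vehicle replicate 17 and corticosterone replicates 19, 29 and 39. Among these 14, the highest level below the gap ran from 0.501 to 271 CPM, so not all were near 0 there. The other 4 split the libraries in other ways. One was at 61.4 CPM or more in vehicle replicates 2, 7 and 27 and corticosterone replicate 4 and at 1.75 CPM or less in the other 9 libraries. Another was at 15.3 to 17.1 CPM in 7 libraries (3 vehicle and 4 corticosterone) and at 0.246 CPM or less in the other 6. None (0) of the 18 was called for corticosterone by edgeR.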
